A study of Mus musculus with 3 samples.

Results

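Dll1-high cells were the cells of 3 mouse mammary tumours in which at least 3 transcripts of the Notch ligand gene Dll1 were decoded, with fewer than 3 transcripts of Wnt7b and with Col1a1 under 10% of the cell's panel transcripts. The members were thus selected on measured transcript counts. They numbered 94465 of the 1747403 cells that passed filtering, out of 1963273 in all; filtering removed cells with fewer than 20 panel transcripts, cells smaller than 50 µm3 and cells larger than 3 times their section's median volume. Tumour 1 held 8348 of them, tumour 2 held 59383 and tumour 3 held 26734. The comparison cells, called matched cells here, were kept cells with at least 1 Cdh1 transcript and no Dll1 transcript, drawn in each tumour to equal the Dll1-high cells in total panel transcripts.

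The tumours came from MMTV-PyMT mice, in which the mouse mammary tumour virus promoter drives the polyomavirus middle T oncogene, and mammary carcinomas form. All 3 are titled WT, and the labels explain neither that term nor the age of the mice. There was 1 section per tumour, of fixed and paraffin-embedded tissue, and no control group, so every comparison is between cells within a tumour and the tumour is the replicate (n = 3). MERSCOPE imaging counts single RNA molecules in place, here for 258 gene columns of the 265 genes stated for the panel, and assigns them to segmented cells.

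Dll1 encodes a membrane-bound ligand that activates Notch receptors on adjacent cells. Receptor cleavage releases an intracellular domain that joins the DNA-binding protein Rbpj and turns on target genes such as those of the Hes and Hey families, while ligand and receptor in the same cell can inhibit each other. In the mouse mammary gland Dll1 is known from basal cells with stem cell activity, which signal through it to macrophages.

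The sections held 60759690 to 78051090 panel transcripts in 513963 to 786165 cells, with medians of 94 to 106 transcripts per kept cell. Blank codes, which match no gene, took 0.481% to 0.503% of decoded transcripts. Of the gene columns, 134 had a higher total than the highest blank in all 3 sections and are called above background. No cell identifier was shared between sections.

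The share of Dll1-high cells differed widely between the tumours. They made up 1.35% of the kept cells of tumour 1 (exact binomial 95% interval 1.32% to 1.38%), 13.1% of tumour 2 (12.98% to 13.2%) and 3.97% of tumour 3 (3.92% to 4.02%). The mean was 6.13% ± 6.16 (SD, n = 3), so the spread was as large as the mean, and the intervals cover counting error only. At the same minimum of 3 transcripts the most frequent blank code marked 0.0392%, 0.0489% and 0.0597% of kept cells. Wnt7b removed 211, 715 and 1146 cells that had enough Dll1, and the Col1a1 limit removed another 453, 1549 and 595.

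Most Dll1-high cells lay close to the minimum. The median was 4 Dll1 transcripts in each tumour, the highest cell had 28, 45 and 40, and 49.5%, 38.9% and 45.1% of the members had exactly 3. Dll1 took 29.8, 27.0 and 26.1 of 1000 panel transcripts in the members of tumours 1, 2 and 3, against 1.83, 8.45 and 3.95 of 1000 over all kept cells. They carried 28.1%, 58.1% and 40.2% of all Dll1 transcripts of the kept cells. Any Dll1 transcript was seen in 13.8%, 46.9% and 25.03% of kept cells. Dll1, Wnt7b, Col1a1 and Cdh1 chose the cells, so their values are a description.

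Cells just inside and just outside the minimum were set side by side. Cells with exactly 3 Dll1 transcripts held 7.19, 4.64 and 16.8 Cldn4 transcripts per 1000 in tumours 1, 2 and 3, and cells with 2 held 9.99, 5.87 and 18.6. For Wif1 the levels were 0.730, 0.213 and 0.363 per 1000 at 3 transcripts, against 1.01, 0.362 and 0.549 at 2. In each tumour both genes were lower at 3 than at 2, by less than between Dll1-high and matched cells. The cells of these comparisons were chosen differently. Cells with 3 and with 2 kept the Wnt7b and Col1a1 limits without a Cdh1 minimum, and were not matched on total transcripts. Their median totals were 123, 144 and 144 at 3, against 116, 130 and 131 at 2.

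Dll1-high cells stood together in the tissue. Of the cells within 25 µm of a Dll1-high cell, 9.91%, 27.4% and 16.9% were Dll1-high in tumours 1, 2 and 3, against 0.859%, 7.08% and 2.79% around matched cells. The difference was 14.5 percentage points on average (SD 5.63, n = 3), higher around Dll1-high cells in 3 of 3 tumours (exact sign-flip permutation test, two-sided, p = 0.25, the smallest that 3 tumours allow). Dll1 chose both kinds of cell and the neighbours counted, and matched cells had to lack it, so the difference is a description. Shares around matched cells lay below those over all kept cells (1.35%, 13.1% and 3.97%), and shares around Dll1-high cells lay above them. From 25 to 50 µm, beyond the nearest cells, the shares were still 7.90%, 24.7% and 13.7%, against 0.966%, 7.79% and 3.22%. At least 1 other Dll1-high cell lay within 25 µm of 64.3%, 90.3% and 82.3% of the members, against 16.1%, 53.1% and 30.2% of matched cells.

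Clumps of linked Dll1-high cells were also counted. With centres linked at up to 15 µm, 12.1%, 26.0% and 20.5% of Dll1-high cells were in clumps of 10 or more, and with only those that also had a Cdh1 transcript linked, 6.85%, 7.18% and 3.92%. The latter shares rest on fewer cells (4537, 31622 and 12305). Fewer cells give fewer links, so the lower shares say nothing about Cdh1 in clumps. Matched cells are a draw of 8347 from 250817, 58047 from 86645 and 26734 from 148277 available cells, so their number of links depends on the share drawn, and their clumps are not set against those of Dll1-high cells. Over tiles of 200 µm the median share of Dll1-high cells was 0.622% in tumour 1, 10.4% in tumour 2 and 1.49% in tumour 3, and the highest tile reached 28.0%, 74.4% and 70.0%. Tiles above 20% numbered 6 of 1284, 477 of 1855 and 69 of 2034.

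**Figure D1:**
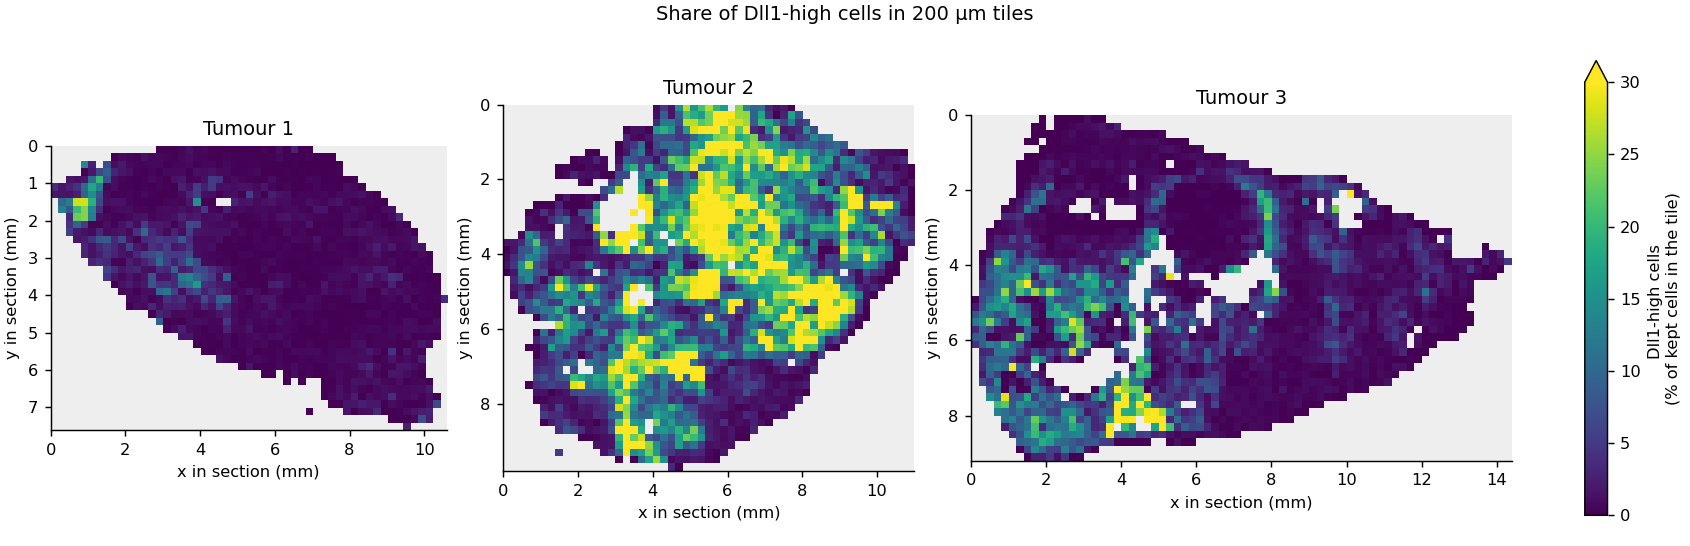
Share of Dll1-high cells among kept cells in each 200 µm tile with at least 20 cells, for tumours 1, 2 and 3, with both axes in mm within the section and colour giving the percent, capped at 30. Tiles above 20% covered patches over much of tumour 2 (477 of 1855 tiles) and smaller areas of tumour 3 (69 of 2034), and in tumour 1 there were 6 of 1284.

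Position relative to the edge and to other cell types did not follow one direction. Within 150 µm of the tissue edge lay 5.01%, 1.98% and 2.61% of Dll1-high cells, against 5.07%, 6.48% and 2.45% of matched cells. The median distance to the nearest cell with at least 2 Pecam1 and Cdh5 transcripts, an endothelial gate, was 27.9, 46.5 and 45.3 µm from Dll1-high cells, against 30.2, 36.1 and 46.4 µm from matched cells. To the nearest cell with at least 2 Adgre1 and Cx3cr1 transcripts, a macrophage gate, it was 20.1, 38.0 and 47.4 µm, against 22.4, 28.6 and 52.6 µm. For both gates, and for a fibroblast gate set by Col1a1, Dll1-high cells were farther away in tumour 2 and nearer in tumours 1 and 3. The mean differences were 2.32, 0.659 and 1.09 µm for the endothelial, macrophage and fibroblast gates, each below its SD of 7.02, 7.69 and 4.81 µm (exact sign-flip permutation test, p = 1 for each, n = 3).

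The name tumour cell was checked against markers. The 5 epithelial markers on the panel (Cdh1, Krt7, Gata3, Cldn4 and Sox9) summed to 115, 124 and 98.7 of 1000 transcripts in Dll1-high cells, against 120, 119 and 106 in matched cells, and 97.1% to 99.4% of Dll1-high cells had at least 2 such transcripts. At least 1 Cdh1 transcript was found in 54.4%, 55.1% and 46.0% of Dll1-high cells and in 47.6%, 41.7% and 31.8% of all kept cells. These shares come from cells of unlike depth. Median panel transcripts per cell were 131, 159 and 157 in Dll1-high cells, against 98, 106 and 94 in all kept cells. The sums are a description, since every matched cell was chosen for Cdh1. Gata3 and Sox9 made up most of them, and both were also found, at lower levels, in cells of an endothelial gate (at least 2 Pecam1 and Cdh5 transcripts) with no Dll1 transcript. Gata3 was at 49.6, 58.6 and 31.7 per 1000 in Dll1-high cells outside that gate, against 19.4, 21.0 and 15.6 in the gate cells without Dll1. Sox9 was at 57.0, 56.0 and 46.3 per 1000 in Dll1-high cells outside the gate, against 19.7, 20.4 and 22.1 in the gate cells without Dll1. The markers on the panel therefore leave the name tumour cell unsettled for single cells, and the cells are named by their Dll1 counts.

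Markers of other cell types were counted within the Dll1-high cells themselves, and the endothelial ones set tumour 1 apart. In the endothelial gate were 6.51% of its Dll1-high cells, against 2.11% of its matched cells, while tumours 2 and 3 had 1.56% and 1.485%, against 2.62% and 1.253%. The 2 endothelial markers summed to 3.57, 0.869 and 0.796 of 1000 transcripts in Dll1-high cells, against 1.01, 1.14 and 0.683. Pericyte or smooth muscle markers (4, one of them Notch3) summed to 13.7, 17.0 and 12.9, against 11.5, 13.6 and 11.4. Notch3 made up most of these sums, at 11.5, 15.8 and 11.8 in Dll1-high cells. In tumour 2 the others were lower in Dll1-high cells: Pdgfrb (0.477 against 1.14), Rgs5 (0.410 against 0.482) and Acta2 (0.276 against 0.417). In tumour 1 Pdgfrb was lower (0.860 against 1.10), while Rgs5 (0.665 against 0.489) and Acta2 (0.673 against 0.453) were higher. Macrophage or dendritic markers (7) summed to 4.93, 2.80 and 1.79, against 3.88, 3.54 and 1.76. Fibroblast markers (8) summed to 28.4, 16.4 and 17.2, against 40.8, 45.4 and 27.5, a list that holds Col1a1, on which the rule set a limit for Dll1-high cells only. No marker of these lists was at 0 in either kind of cell, but several were not above background. These were Adgre1, Cd163, Folr2, Ccl8 and Ccr7 of the macrophage or dendritic markers, Acta2, and the fibroblast markers Pi16, Clec3b and Thy1.

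Keratins of the basal layer also set tumour 1 apart. Krt5, a basal keratin, was at 21.7, 2.27 and 2.87 per 1000 in Dll1-high cells of tumours 1, 2 and 3, against 6.21, 3.47 and 3.61 in matched cells. Its partner Krt14 was at 3.99, 0.841 and 1.498, against 1.77, 1.99 and 1.35. The Krt5 level was therefore higher in the Dll1-high cells of tumour 1 only and lower in those of the other tumours. At least 1 Krt5 transcript was found in 31.4% of Dll1-high and 29.8% of matched cells of tumour 1. The share of cells with Krt5 thus hardly differed there, and most Dll1-high cells had none. In tumour 2 the shares were 13.9% and 24.5%. Neither keratin passed the test over the 3 tumours. Krt5 had a log2 fold change of 0.34 (SE 0.40, edgeR adjusted p = 0.687) and Krt14 one of 0.12 (SE 0.39, adjusted p = 0.897). Without tumour 1 the log2 fold changes were -0.36 and -0.43. Of the 7 measured basal genes none passed. Trp63, the transcription factor of basal cells, was at 2.24, 1.56 and 0.990 in Dll1-high cells and 1.003, 1.37 and 0.671 in matched cells (log2 fold change 0.72, adjusted p = 0.0950).

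Counts of Dll1-high and matched cells were then summed per tumour and compared across all genes but the 4 of the rule, with edgeR's quasi-likelihood test, the tumour as a block and Benjamini-Hochberg adjustment. Of 254 genes tested, 16 passed an adjusted p of 0.05 (6.3%), 7 of them higher (2.76%) and 9 lower (3.54%) in Dll1-high cells. Among the higher genes were Ecrg4, Bglap3, Dll4, Mmp14, Irf7 and Tcf7l2. The lower genes were Wif1, Cldn4, Fn1, Mki67, Arg1, Saa2 and Thbs1, and also Pi16 and Wap, both not above background. All 16 kept their direction in each other setting in which they were tested, but the calls rest on all 3 tumours together: without tumour 1, 2 or 3 edgeR called no gene, and 50, 43 and 29 genes had an unadjusted p below 0.05. Another random draw of matched cells called 8 genes (among them Wif1, Cldn4, Thbs1, Ecrg4, Fn1, Arg1 and Mmp14), and DESeq2 called 54, among them all 16. The Wnt7b and Col1a1 limits applied to Dll1-high cells only and the Cdh1 minimum to matched cells only; with all of them set on both arms 8 genes passed, while Irf7 (log2 fold change 0.59, edgeR adjusted p = 0.124), Tcf7l2 (0.50, 0.0765), Bglap3 (0.94, 0.0927), Dll4 (0.92, 0.0927), Mki67 (-1.03, 0.0927) and Fn1 (-0.75, 0.0697) did not. Among 27 blank codes tested the same way 1 passed, at a log2 fold change of 0.51.

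**Figure D2:**
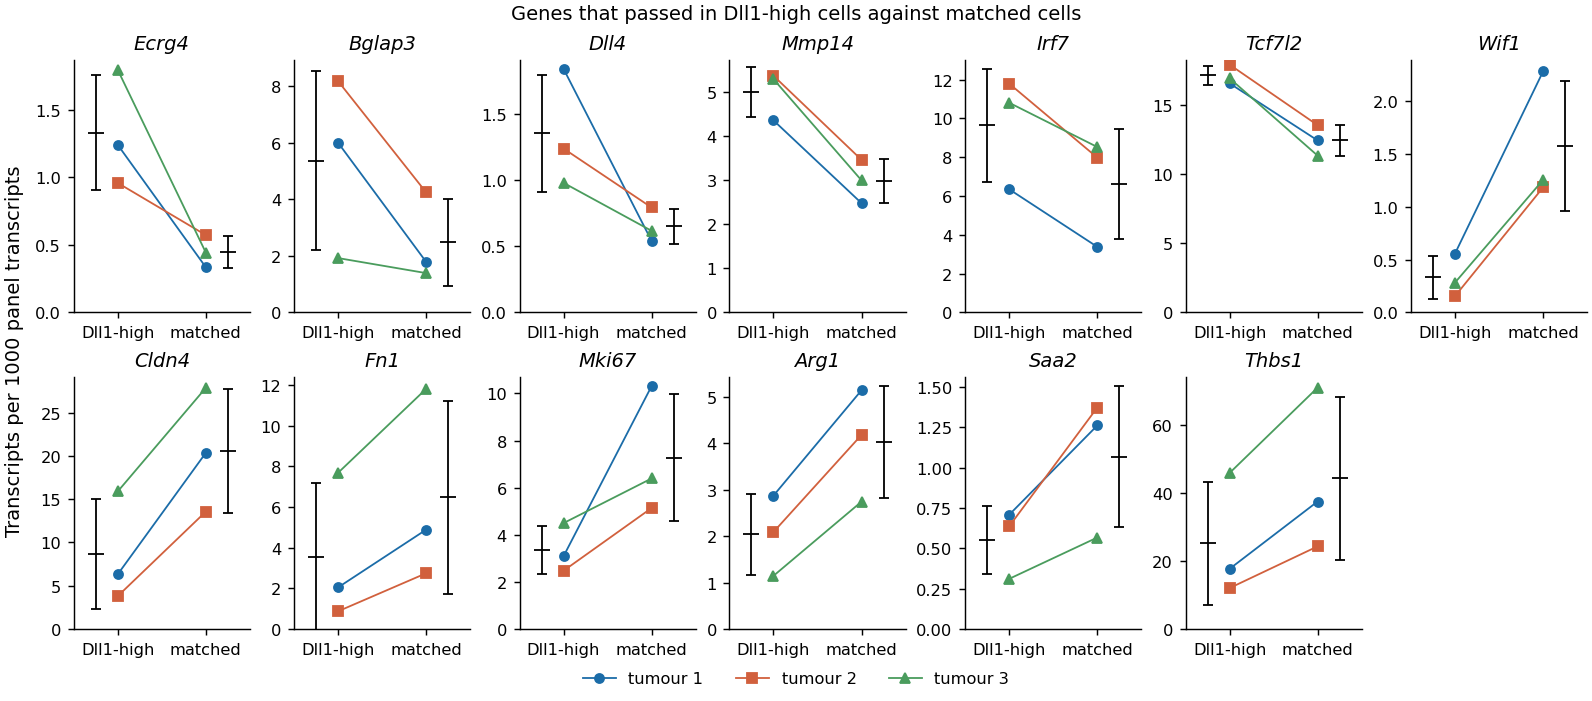
Levels of 13 genes above background that passed, in transcripts per 1000 panel transcripts, with Dll1-high cells on the left and matched cells on the right of each panel. Coloured lines join the 2 values of a tumour, and black marks give mean and SD (n = 3). Each line slopes the same way within a panel, for example for Wif1, at 0.155 to 0.557 in Dll1-high cells and 1.18 to 2.28 in matched cells.

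Within the Notch pathway, 10 genes besides Dll1 were on the panel, and 1 passed, higher, beside 7 higher and 9 lower of all 254. Their median log2 fold change was 0.42, against 0.05 over all genes tested, and 6 of the 10 were higher and 2 lower in 3 of 3 tumours, beside 39 higher and 70 lower of all 254. Among the ligands, Dll4, known from endothelial tip cells, was at 1.84, 1.24 and 0.979 per 1000 in Dll1-high cells, against 0.541, 0.793 and 0.617 in matched cells. The groups did not overlap, and the log2 fold change of 1.10 (SE 0.26) passed (edgeR adjusted p = 0.0396). Dll1-high cells inside the endothelial gate held 7.41, 5.48 and 8.70 Dll4 transcripts per 1000 and those outside it 1.32, 1.13 and 0.828. With all cells of the gate left out of both arms the log2 fold change of Dll4 was 1.08 (adjusted p = 0.0143), about as large as with them. Dll4 did not pass with the limits set on both arms, within tiles (0.91, adjusted p = 0.0581) or in cells without markers of other types (1.02, adjusted p = 0.0770). With the cells of the endothelial gate left out of both arms, 30 of 254 genes passed (11.8%), 16 higher (6.3%) and 14 lower (5.51%). Among them were the same 16 genes and also Notch1 (0.44, edgeR adjusted p = 0.0239) and Hey1 (0.70, adjusted p = 0.0346).

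The Jagged ligands took other courses. Jag1 was at 2.31, 0.734 and 1.19 per 1000 in Dll1-high cells, against 2.83, 1.60 and 2.26 in matched cells. It was lower in each tumour, the groups overlapped, and the log2 fold change of -0.70 (SE 0.23) did not pass (edgeR adjusted p = 0.0950). Jag2 was at 4.32, 0.830 and 0.653, against 1.40, 1.19 and 0.764, and so higher in tumour 1 and lower in tumours 2 and 3 (log2 fold change 0.36 with all tumours and -0.26 without tumour 1). Dll3 was not above background, at 0.204 to 0.265 in Dll1-high cells and 0.153 to 0.185 in matched cells.

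The receptors Notch1 and Notch3 were higher in each tumour without passing. Notch1 was at 25.6, 31.9 and 19.1 per 1000 in Dll1-high cells, against 18.6, 28.2 and 14.7 in matched cells (log2 fold change 0.43, SE 0.11, edgeR adjusted p = 0.0572). Its groups overlapped across tumours. Notch3, which pericytes also express, was at 11.5, 15.8 and 11.8, against 9.43, 11.5 and 10.1 (0.41, SE 0.14, adjusted p = 0.111). Notch2 was at 9.69, 13.4 and 8.12, against 11.001, 10.9 and 8.73, higher in tumour 2 only. Of the downstream genes, the target Hey1 was at 2.76, 3.98 and 1.73, against 1.92, 2.90 and 1.03 (0.66, SE 0.20, adjusted p = 0.0795), and Hes1 at 0.938, 0.952 and 1.06, against 0.847, 0.890 and 0.618 (0.43, SE 0.22, adjusted p = 0.302). Rbpj was at 0.694, 0.658 and 0.517, against 1.06, 0.856 and 0.643 (-0.35, adjusted p = 0.359). With the minimum set at 5 Dll1 transcripts, Notch1, Notch3 and Hey1 passed (log2 fold changes 0.51, 0.49 and 0.78; adjusted p = 0.0217, 0.049 and 0.0437).

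**Figure D3:**
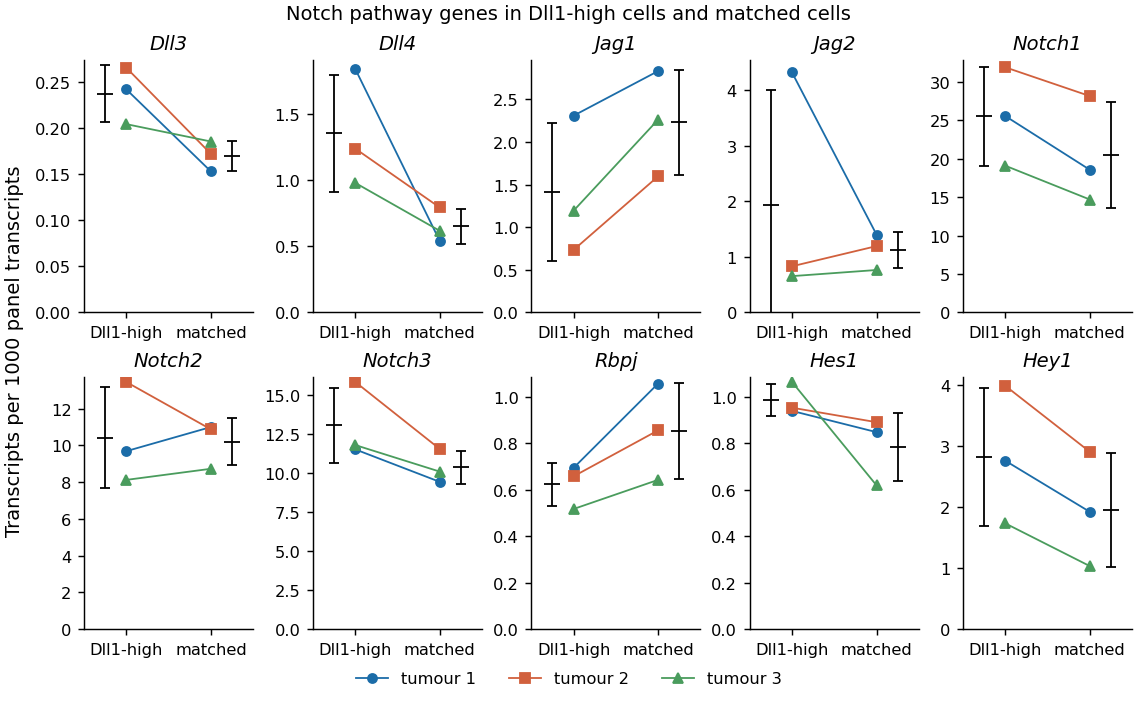
Levels of the 10 Notch pathway genes on the panel other than Dll1, in transcripts per 1000 panel transcripts, with Dll1-high cells left and matched cells right, a coloured line per tumour and black marks for mean and SD (n = 3). Dll4, Notch1, Notch3, Hes1 and Hey1 were higher and Jag1 and Rbpj lower in Dll1-high cells of each tumour, and of these only Dll4 passed the test.

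Among the other genes that passed as higher, Ecrg4, which encodes a secreted peptide precursor, had the largest fold change. It was at 1.24, 0.957 and 1.79 per 1000 in Dll1-high cells, against 0.334, 0.572 and 0.443 in matched cells (log2 fold change 1.64, SE 0.27, edgeR adjusted p = 0.0106). At least 1 Ecrg4 transcript was found in 11.9%, 11.99% and 22.0% of Dll1-high cells, against 4.10%, 7.45% and 6.66% of matched cells, so most Dll1-high cells had none. Bglap3, of the osteocalcin family, was at 5.99, 8.17 and 1.92, against 1.79, 4.24 and 1.39 (1.14, SE 0.25, adjusted p = 0.0383). Its groups overlapped because the level differed between tumours in both kinds of cell, and whether its probes separate it from its near-identical copies is not stated.

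Regulators of transcription and a protease were also among the higher genes. Irf7, a regulator of interferon genes, was at 6.34, 11.8 and 10.8 per 1000 in Dll1-high cells, against 3.38, 7.97 and 8.52 in matched cells (log2 fold change 0.69, SE 0.16, edgeR adjusted p = 0.0396). Its groups overlapped, tumour 1 being lower in both kinds of cell. Tcf7l2, a transcription factor through which Wnt signals act, was at 16.6, 17.9 and 16.9, against 12.4, 13.5 and 11.3 (0.55, SE 0.13, adjusted p = 0.0396), with little spread between tumours in either group. Mmp14, a membrane-bound matrix protease, was at 4.35, 5.36 and 5.28, against 2.48, 3.46 and 2.99 (0.84, SE 0.18, adjusted p = 0.0354). Cells of the fibroblast gate held 6.59, 4.72 and 3.72 Mmp14 transcripts per 1000. In the macrophage gate the levels were 6.62, 5.81 and 4.84, and in the endothelial gate 6.17, 5.36 and 4.47.

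Wif1, which encodes a secreted inhibitor of Wnt ligands, fell most. It was at 0.557, 0.155 and 0.282 per 1000 in Dll1-high cells, against 2.28, 1.18 and 1.253 in matched cells, with no overlap (log2 fold change -2.29, SE 0.24, edgeR adjusted p = 0.00138). At least 1 Wif1 transcript was found in 6.36%, 1.87% and 4.16% of Dll1-high cells, against 21.6%, 11.3% and 14.996% of matched cells. Cldn4, a tight junction protein of luminal epithelium, was at 6.33, 3.81 and 15.9, against 20.3, 13.6 and 27.9 (-1.36, SE 0.20, adjusted p = 0.00683). It was lower in each tumour, and the level of tumour 3 exceeded the others in both kinds of cell.

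Mki67, a marker of dividing cells, was at 3.09, 2.48 and 4.50 per 1000 in Dll1-high cells, against 10.3, 5.14 and 6.39 in matched cells (log2 fold change -1.01, SE 0.25, edgeR adjusted p = 0.0432). Its groups did not overlap, and the gap was widest in tumour 1. Top2a, also of dividing cells, was at 1.34, 1.30 and 1.93, against 3.47, 2.20 and 2.31 (-0.70, adjusted p = 0.123), and the cyclin gene Ccnd1 at 11.1, 17.0 and 21.3, against 17.4, 16.5 and 15.9 (0.03, adjusted p = 0.943). Of the 3 proliferation genes 1 therefore passed.

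Thbs1, Fn1, Arg1 and Saa2 were also lower. Thbs1, an adhesive matrix protein that activates TGF-beta, was at 17.7, 12.1 and 45.9 per 1000 in Dll1-high cells, against 37.5, 24.3 and 70.9 in matched cells (log2 fold change -0.82, SE 0.12, edgeR adjusted p = 0.00683). Fn1, fibronectin, was at 2.05, 0.876 and 7.68, against 4.88, 2.74 and 11.8 (-1.09, SE 0.22, adjusted p = 0.0322), and at 14.98 to 23.5 in cells of the fibroblast gate. With the limits set on both arms Thbs1 still passed (-0.86, adjusted p = 0.0298). Arg1, the arginine-degrading enzyme, was at 2.87, 2.09 and 1.15, against 5.14, 4.18 and 2.74 (-0.95, SE 0.20, adjusted p = 0.0354). The acute-phase gene Saa2 was at 0.709, 0.637 and 0.312, against 1.26, 1.37 and 0.567 (-0.85, SE 0.19, adjusted p = 0.0396), and whether its probes separate it from its close copy Saa1 is not stated. Thbs1, Fn1, Arg1 and Saa2 were lower in each tumour, with groups that overlapped across tumours.

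Other gene lists held few calls. Of 27 measured Wnt pathway genes, Tcf7l2 passed as higher and Wif1 as lower, with a median log2 fold change of 0.09. The Wnt target Axin2 was at 0.516, 0.306 and 0.419 per 1000 in Dll1-high cells, against 0.845, 0.431 and 2.25 in matched cells (-1.11, SE 0.37, edgeR adjusted p = 0.0950), and the Wnt antagonist Sfrp1 at 6.32, 7.76 and 9.42, against 4.87, 6.78 and 4.96 (0.58, adjusted p = 0.0858). Of 4 measured luminal genes, Cldn4 and Wap were lower, while Gata3, the regulator of luminal cells, was at 47.2, 58.5 and 31.5, against 38.5, 48.3 and 25.6, at the threshold without passing (0.38, SE 0.09, adjusted p = 0.0500499). Of 8 immediate early and stress genes none passed, 7 were lower in 3 of 3 tumours, beside 70 of all 254, and the median log2 fold change was -0.35, against 0.05 over all genes. Atf3 came closest there, at 0.938, 0.846 and 1.54, against 1.66, 1.52 and 3.12 (-0.81, adjusted p = 0.0529).

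Of 9 interferon genes Irf7 alone passed, and Isg15 was at 0.734, 2.965 and 2.96 per 1000 in Dll1-high cells, against 0.709, 2.21 and 2.48 in matched cells (edgeR adjusted p = 0.405). Of 10 TGF-beta genes Thbs1 alone passed, and the TGF-beta target Pmepa1 was at 31.8, 49.2 and 39.6, against 28.3, 36.2 and 30.9 (log2 fold change 0.41, adjusted p = 0.0572). Of 14 matrix and laminin genes Mmp14 was higher and Fn1 and Thbs1 lower. None of 9 stem or progenitor genes and none of 7 EMT factors passed. Sox9, a progenitor-associated transcription factor and one of the most abundant transcripts of these cells, was at 54.0, 55.6 and 46.0, against 47.9, 46.3 and 42.2 (0.27, adjusted p = 0.112).

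Since Dll1-high cells were concentrated in certain areas, matched cells were also drawn from the same 200 µm tiles. That used 93.7%, 47.2% and 76.2% of the Dll1-high cells. Again 16 of 254 genes passed (6.3%), 6 higher (2.36%) and 10 lower (3.94%), and 9 of them were among the 16 of the tumour-wide comparison. Cldn4 (log2 fold change -1.08, edgeR adjusted p = 0.00585), Thbs1 (-0.75, 0.00585), Fn1 (-0.98, 0.0219), Saa2 (-0.71, 0.0364), Ecrg4 (1.02, 0.0304), Irf7 (0.35, 0.0472) and Tcf7l2 (0.30, 0.0397) passed in both. Several differences were smaller between cells of the same tile, among them Wif1 (-0.94, adjusted p = 0.0522), Mmp14 (0.31, 0.12), Bglap3 (0.47, 0.0584), Dll4 (0.91, 0.0581), Arg1 (-0.43, 0.105) and Mki67 (-0.77, 0.12). Jag1 was at -0.25 and Hey1 at 0.32 there. Krt5 was at 1.08 (adjusted p = 0.0581) within tiles, against 0.34 across the tumour.

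Levels were next followed over classes of 0, 1, 2, 3, 4, 5 to 9 and 10 or more Dll1 transcripts per cell, in cells of equal total and per 1000 transcripts other than Dll1, as a description without a test. All classes kept the Wnt7b and Col1a1 limits, but none required a Cdh1 transcript as matched cells did. Cells of other types were thus not left out, and whether the mix of cell types differed between classes was not tested. The totals compared covered 75.2%, 98.1% and 95.1% of the Dll1-high cells of tumours 1, 2 and 3. Of 130 genes above background outside the rule, 8 were higher at every step in 3 of 3 tumours (among them Notch1, Gata3, Fzd1, Tcf7l2, Sfrp1, Wnt5a and Bglap3) and 8 were lower at every step (Wif1, Mki67, Cldn4, Chad, Jag1, Thbs1, Cpt1a and Jun). Mean Notch1 levels were 21.9, 23.1, 24.6, 26.2, 27.2, 28.7 and 31.7 over the 7 classes. Mean Jag1 levels were 2.38, 2.10, 1.86, 1.65, 1.34, 1.247 and 0.976, so Notch1 was higher and Jag1 lower with more Dll1.

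Across these classes Ecrg4 had the largest ratio of the last class to the first, with means of 0.528 at no Dll1 transcript, 1.10 at 3 and 2.49 at 10 or more. Wif1 had the smallest, with means of 1.64, 0.441 and 0.149 at the same classes. Dll4 in tumour 1 was at 0.705, 1.09, 1.54, 1.91, 1.94, 1.82 and 1.87 over the classes, level beyond 3 transcripts, whereas in tumours 2 and 3 it was higher at every step. Mki67 had means of 6.86, 3.48 and 1.76 at 0, 3 and 10 or more, and Cd14, a lipopolysaccharide co-receptor, 3.99, 6.33 and 8.50. The class of 10 or more rests on 256, 3638 and 1142 cells of tumours 1, 2 and 3.

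**Figure D4:**
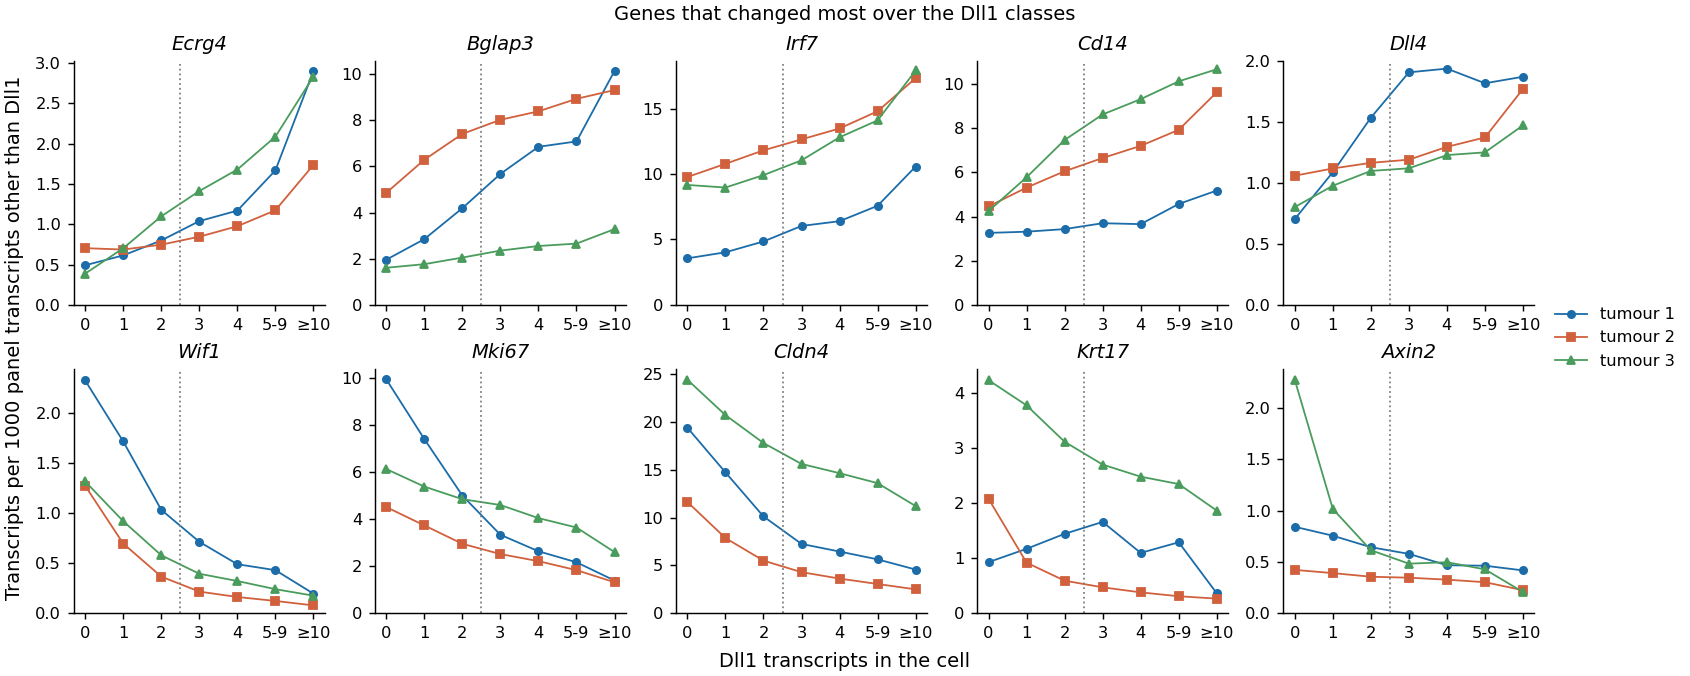
Levels of the 5 genes with the largest and the 5 with the smallest ratio of last to first class, over classes of Dll1 transcripts per cell, in transcripts per 1000 panel transcripts other than Dll1, standardised to equal total transcripts, with a line per tumour. Cells of all classes kept the Wnt7b and Col1a1 limits, without a Cdh1 minimum. The dotted line marks the minimum of 3 transcripts. Wif1, Mki67 and Cldn4 are lower and Bglap3 is higher at every step in each tumour, on both sides of that line.

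Cells beside Dll1-high cells were examined because Dll1 acts on adjacent cells. Cells with Cdh1 and no Dll1 transcript whose centre lay within 15 µm of a Dll1-high cell (15769, 13869 and 20306 used) were set against such cells with none within 50 µm, equal in number and in total transcripts. Only 54.3% of such cells of tumour 2 found a partner. In edgeR none of 254 genes passed (0%) and 20 had an unadjusted p below 0.05, while DESeq2 called 8. The Notch target Hey1 was at 2.37, 3.51 and 1.37 per 1000 in cells beside Dll1-high cells, against 1.69, 2.30 and 0.891 in cells away from them (log2 fold change 0.62, SE 0.23, edgeR adjusted p = 0.514). Hes1 was at 0.937, 0.975 and 0.926, against 0.779, 0.789 and 0.487 (0.55, SE 0.24, adjusted p = 0.552). Both targets were higher beside Dll1-high cells in each tumour, without passing the test.

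When the away cells came from the same 200 µm tile, 21 of 254 genes passed (8.27%), 13 higher (5.12%) and 8 lower (3.15%). Among them were Hey1 (log2 fold change 0.31, SE 0.06, edgeR adjusted p = 0.0233) and Hes1 (0.34, SE 0.08, adjusted p = 0.0404). Genes that differed in the Dll1-high cells themselves also passed beside them: Cldn4 (-0.48, adjusted p = 0.000878), Thbs1 (-0.38, 0.00796), Bglap3 (0.33, 0.0204), Mmp14 (0.37, 0.0204), Irf7 (0.23, 0.0207), Tcf7l2 (0.20, 0.0233) and Ecrg4 (0.44, 0.0362). Within tiles these genes moved in the same direction as in Dll1-high cells. Other genes called in Dll1-high cells did not pass beside them within tiles: Wif1 (-0.23, edgeR adjusted p = 0.175), Fn1 (-0.59, 0.0522), Dll4 (0.27, 0.0974), Arg1 (-0.013, 0.968), Mki67 (-0.082, 0.428) and Saa2 (-0.18, 0.266). Irf7 had the opposite sign in the comparison across the tumour (-0.15, edgeR adjusted p = 0.926), at 4.40, 8.79 and 6.96 per 1000 beside Dll1-high cells, against 3.61, 9.38 and 11.9 away from them. Whether transcripts of Dll1-high cells assigned to the cells beside them take part in this was not tested. Only 63.4%, 12.1% and 27.7% of the cells beside Dll1-high cells had a partner in their tile.

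Hey1 was lower with each step away from the nearest Dll1-high cell. In cells with Cdh1 and no Dll1 transcript, its level over bands of 0 to 10, 10 to 15, 15 to 25, 25 to 50, 50 to 100 and over 100 µm was 2.52, 2.21, 2.07, 1.86, 1.66 and 1.61 per 1000 in tumour 1. In tumour 2 Hey1 was at 3.50, 3.30, 2.90, 2.59, 2.29 and 1.86, and in tumour 3 at 1.44, 1.29, 1.19, 0.984, 0.911 and 0.658. It was 1 of 5 genes of 130 that were lower at every step in 3 of 3 tumours, with Lrp6, Mmp14, Pmepa1 and Tcf7l2, while Axin2, Cpt1a and Klf4 were higher at every step. Hes1 was highest in the nearest band in each tumour, at 0.970, 0.9505 and 0.945, and at 0.751, 0.831 and 0.363 beyond 100 µm. The band beyond 100 µm held 43712, 1465 and 19459 cells. All bands pooled cells of the whole section, standardised for total transcripts but not for tile or cell volume.

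**Figure D5:**
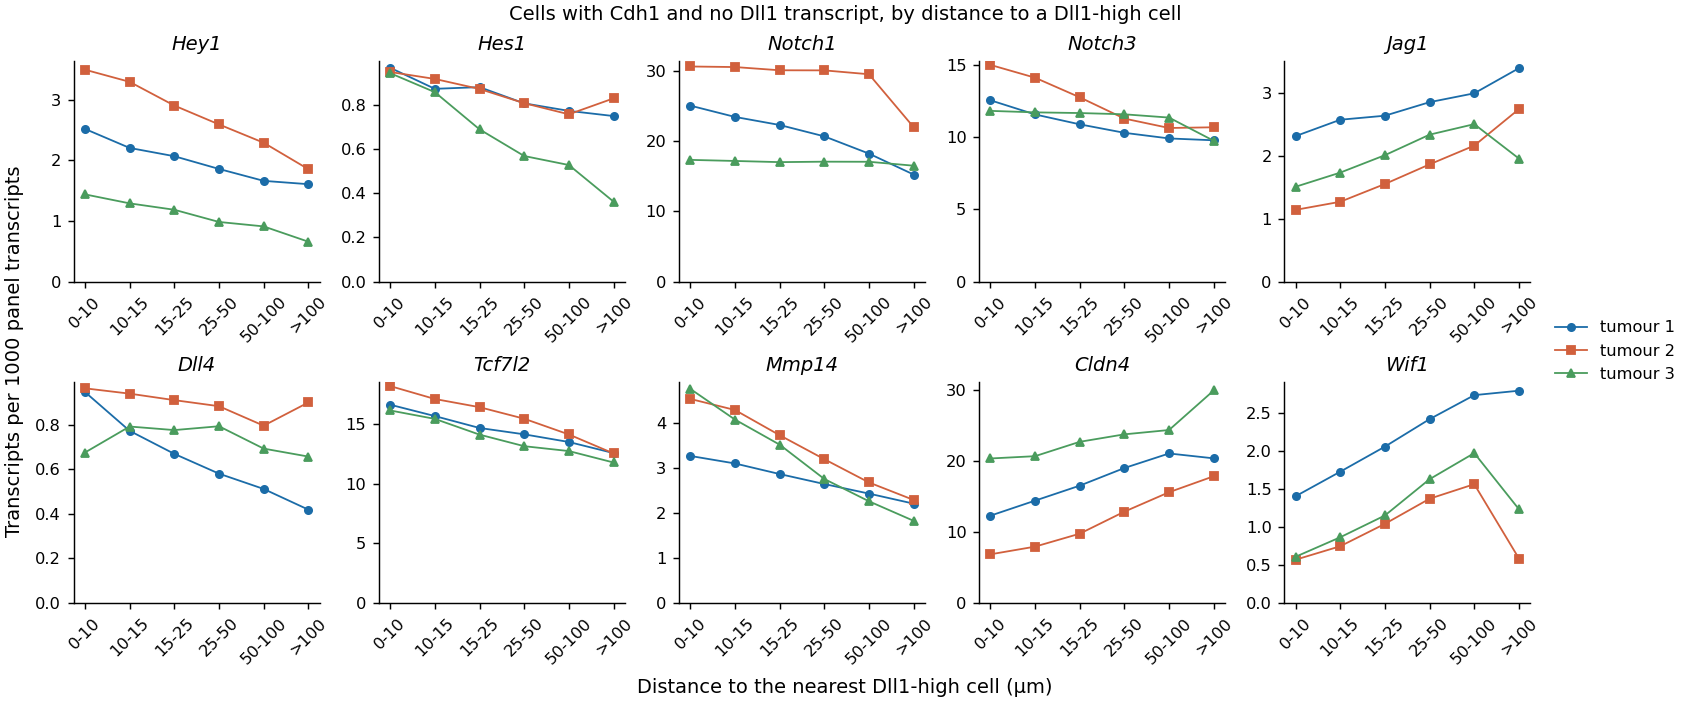
Levels of 10 genes in cells with Cdh1 and no Dll1 transcript by distance to the nearest Dll1-high cell in µm, in transcripts per 1000 panel transcripts, standardised to equal total transcripts, with a line per tumour. Hey1 and Mmp14 are lower in each farther band in all 3 tumours, while Wif1 climbs up to 100 µm in each and is lower beyond it in tumours 2 and 3.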

How the data were processed

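The deposited tables give, for each cell, the raw count of every gene and blank code, which the authors did not normalize as far as the whole numbers show, and the volume and centre of each cell in units the headers do not state (taken as µm3 and µm). The labels name no decoding or segmentation software. Scanpy 1.9.3 is listed in the submitters' processing notes, its role unstated. The members, gene lists and tests were chosen with earlier results of these data known. Dll1-high cells and as many matched cells were paired in bins of 0.05 on the log2 scale of total panel transcripts (seed 1), which used 8347, 58047 and 26734 Dll1-high cells of tumours 1, 2 and 3. Sums per tumour were tested in edgeR 4.0.16 (R 4.3.3, limma 3.58.1) with filterByExpr, TMM, the quasi-likelihood F-test and Benjamini-Hochberg adjustment. DESeq2 1.42.0 was an alternative. Both arms come from the same section, so the tumour was a block, and p-values measure the spread between 3 sections, 1 per tumour. Dll1, Wnt7b, Col1a1 and Cdh1 were left out of the fit. Named genes were those above background that passed with 1 sign in 3 of 3 tumours (up to 12 in each direction), up to 4 members of each list with the lowest p, all Notch pathway genes, and 5 genes in each direction over the Dll1 classes. Pi16, Wap, the genes in the plot by distance, those named for steps in every tumour and those given within tiles only were chosen after their values were seen. Class and distance levels were standardised over total transcripts in log2 bins of 0.25. On simulated counts with 40 of 254 genes changed 2-fold, 38 were called with the right sign, and 2 unchanged genes were called. Those counts had a common dispersion (spread beyond counting error) of 0.033. Recovery with unequal dispersion, or with changes that differ between tumours, was not tested. No doublet caller was run on these segmented cells. Outlines met the image limit over 75, 2950 and 3050 µm in tumours 1, 2 and 3, which was not taken as an edge. A result of the fit is not reported here. Distances and shares were computed with scipy 1.17.1.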

Additional observations from a re-analysis of the deposited data

How the results depend on the processing

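The comparison of Dll1-high with matched cells called 16 genes, and all 16 kept their direction wherever they were tested. The count was 54 with DESeq2, 46 with Dll1 at least 3% of transcripts, 30 with Dll1 at least 5, 30 outside the endothelial gate (chosen after seeing the data), 9 with at least 40 transcripts per cell, 8 with another random draw, 8 with the Cdh1, Wnt7b and Col1a1 limits in both arms, 7 at 150 µm or more from the edge, 5 without TMM and 5 when volume was matched too. With no replicate block, so without pairing by tumour, edgeR called 0 (15 had an unadjusted p below 0.05), and leaving out 1 tumour at a time gave 0 each time (range 0 to 0). In cells beside Dll1-high cells the count of 0 became 21 with away cells of the same tile, 9 with another draw and 8 with DESeq2, and lay between 0 and 3 without 1 tumour. The cause of these shifts was not tested. Of the tested genes, 124 did not exceed the highest blank code in all 3 sections, so these data show little of them. The named genes were fitted 1018 times in Dll1-high cells, with 804 fits on the same side of the threshold, 118 weaker, 75 stronger and 21 of the opposite sign.

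In Dll1-high cells, these log2 fold changes had the opposite sign. At 150 µm or more from the edge, Ccnd1 was -0.0049. With Dll1 at least 3% of transcripts, Ccnd1 was -0.24, Irf1 was 0.014, Jag2 was -0.061, Krt14 was -0.32 and Krt5 was -0.28. With Dll1 at least 5, Irf1 was 0.047. Outside the endothelial gate, Irf1 was 0.0093. In cells without markers of other types, Ccnd1 was -0.25 and Krt14 was -0.26. Without TMM, Ccnd1 was -0.051. Within the same tile, Ccnd1 was -0.16 and Irf1 was 0.0057. Without 1 tumour at a time the ranges were Ccnd1 -0.23 to 0.34, Irf1 -0.098 to 0.028, Jag2 -0.26 to 0.75, Krt14 -0.43 to 0.72, Krt17 -1.53 to 0.027, Krt5 -0.36 to 0.79 and Notch2 -0.091 to 0.21.

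In cells beside Dll1-high cells, these did. With at least 40 transcripts, Dll3 was -0.033. Within the same tile, Dll3 was -0.11, H2-K1 was 0.025, Irf1 was 0.053, Irf7 was 0.23, Isg15 was 0.17, Jag2 was 0.12, Krt14 was 0.12 and Krt5 was 0.37. Among genes above background alone, Notch2 was -0.0036. Without TMM, Dll3 was -0.037 and Notch2 was -0.051. With another draw, Notch2 was -0.0061. Without 1 tumour at a time the ranges were Cd44 -0.020 to 0.12, Dll3 -0.17 to 0.13, Fosb -0.50 to 0.082, H2-K1 -0.32 to 0.049, Id2 -0.027 to 0.21, Irf1 -0.21 to 0.054, Irf7 -0.33 to 0.14, Krt14 -0.86 to 0.36, Notch2 -0.16 to 0.12, Nr4a1 -0.38 to 0.11, Snai1 -0.096 to 0.22, Top2a -0.19 to 0.035 and Trp63 -0.061 to 0.31.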
